A study of Rattus norvegicus with 3 samples.

Results

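The 6 genes described here encode the interferon-inducible ubiquitin-like modifiers FAT10 (Ubd) and ISG15 (Isg15) and the ISG15 enzymes Uba7, Ube2l6, Herc6 and Usp18. They were chosen by function, with the differences of heparin and peptide from control in these arrays already known, so the values against control are a description and not a test. They are 6 of 14218 genes that carry a single symbol on the array, and 8 of 20832 such probe sets measure them: 3 for Uba7 and 1 for each of the others. A probe set is a group of short probes read together as 1 value.

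All tissue was donor kidney of male Wistar rats (370 to 508 g; no age is given in the labels) in a model of organs donated after the heart has stopped, with 20 min of warm ischaemia and then cold storage in University of Wisconsin solution for 17 ± 0.7 h. Each kidney was then perfused from the femoral artery of a recipient for 5 h 43 min ± 21 min, and the recipient received heparin (100 U/ml/h), peptide 2 (0.5 mg/ml, derived from the part of the chemokine CCL5 that binds heparin) or normal saline (1 ml/h, the control). The labels name an infusion and the design text a bolus, and no other heparin was given. RNA of 3 of the 7 kidneys per group, those with the best RNA, was pooled on 1 array per group, so no spread between animals was measured and no p-value or standard error can be given. All values below are GCRMA log2 expression values unless a fold is named. In whole-kidney RNA, a change in the number of expressing cells and a change in RNA per cell cannot be told apart.

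ISG15 is attached to proteins through a chain of enzymes like that of ubiquitin. Uba7 is its activating enzyme (E1), Ube2l6 its conjugating enzyme (E2), and Herc6 the main ISG15 ligase (E3) known in the mouse, where human cells use HERC5. Usp18 is the protease that removes ISG15, and it also dampens signalling at the type I interferon receptor. FAT10 consists of a pair of ubiquitin-like domains, is induced by interferon gamma together with TNF, and directs its targets to the proteasome. It is attached by enzymes outside this group, the E1 Uba6 and the E2 Ube2z.

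The arrays were similar in their overall distribution, with medians of 4.16 (heparin), 4.14 (peptide) and 4.14 (control). Of 11 kidney markers 10 were found on the array under a single symbol, and their mean level was 12.25, 12.31 and 12.28 on the heparin, peptide and control arrays. T and NK cell markers averaged 3.04, 3.01 and 3.01 in that order, with 4 of 12 (Cd3d, Cd4, Cd8b and Klrd1) at the lowest array value throughout. Above the array medians lay 2 of the 12, Cd3e (4.76 on each array) and Gzmb (5.74, 5.40 and 5.40). The 10 macrophage and dendritic cell markers averaged 6.27, 6.13 and 6.19, with Cd163 at the lowest value. Of these, 7 were above the median of every array. Their log2 differences from control ran from -0.44 (Itgax) to 0.49 (Lyz2) with heparin and from -0.62 (Itgax) to 0.11 (Cd14) with peptide. The 6 neutrophil markers averaged 7.77, 7.89 and 7.88, with Camp at or within 0.01 of the lowest value, and the 5 endothelial markers 8.78, 8.49 and 8.58. Of the 3 B and plasma cell markers Cd79b and Ms4a1 were at the lowest value, and Jchain read 6.72, 5.14 and 5.30. The 3' minus 5' gap of beta-actin, a measure of RNA length, was 2.95 on the heparin array, 2.34 on the peptide array and 2.33 on the control array. The same gap was 0.32, 0.37 and 0.36 for Gapdh and 2.18, 2.28 and 2.18 for hexokinase, in the same order. The part of cell content and RNA quality in the results below was not tested.

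The modifier FAT10 showed the largest difference of the group. Ubd read 11.43 in the heparin pool and 10.83 in the peptide pool, against 7.20 in the control pool. It was 18.9-fold higher with heparin and 12.4-fold higher with peptide than in control, which placed it first among 9236 measured genes for heparin and in place 2 of 9268 for peptide. A gene counted as measured when both arrays compared read at or above their median over all probe sets. In control Ubd lay above 70.5% of all probe sets, and with heparin above 97.4%.

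Isg15 was near the top of the range in every pool, with 13.74 in heparin and 13.63 in peptide, against 12.40 in control. Already in control its probe set was brighter than 98.7% of all probe sets. It was 2.53-fold higher with heparin and 2.34-fold higher with peptide (log2 differences of 1.34 and 1.23). The treated pools lay close to each other and both lay above control.

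The enzymes of the ISG15 chain differed in the same direction but by unequal amounts. The probe set of the E1 gene Uba7 that was brightest by its mean over the arrays was 1379633_a_at. It read 8.58 in heparin and 8.18 in peptide, against 5.71 in control, which is 7.34-fold and 5.56-fold higher. A further set (1386277_at) read 8.17 in heparin and 7.67 in peptide, against 6.06 in control, or 4.31-fold and 3.06-fold higher. Both sets place heparin first, peptide next and control lowest. The remaining set (1379634_at) lay at the array median, with the identical value of 4.19 in heparin and in peptide and 4.08 in control, and its control value was below the median. Averaging the 3 sets gave Uba7 log2 differences of 1.70 for heparin and 1.40 for peptide, against 2.88 and 2.48 from the brightest set, so the size for Uba7 depends on the probe set.

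The E2 gene Ube2l6 read 7.10 in heparin and 6.94 in peptide, against 5.83 in control. Its log2 differences, 1.26 and 1.11, lay just past 2-fold, and with 32 added to the unlogged values they became 0.92 and 0.80, below 2-fold. The E3 gene Herc6 read 10.17 in heparin and 10.20 in peptide, against 9.38 in control. At 1.74-fold and 1.77-fold higher it was the member that stayed under 2-fold against control. The protease gene Usp18 read 10.83 in heparin and 10.46 in peptide, against 8.62 in control, and was 4.63-fold and 3.59-fold higher. It held place 12 in both comparisons. By the size of the log2 difference from control, and not by level, the E1 and the protease came before the modifier, the E2 and the E3 in both treated pools. Which of Uba7 and Usp18 came first depends on the Uba7 probe set: the brightest set lay above Usp18 (2.21 with heparin and 1.84 with peptide), while set 1386277_at (2.11 and 1.61) and the mean of the 3 sets (1.70 and 1.40) lay below it.

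**Figure D1:**
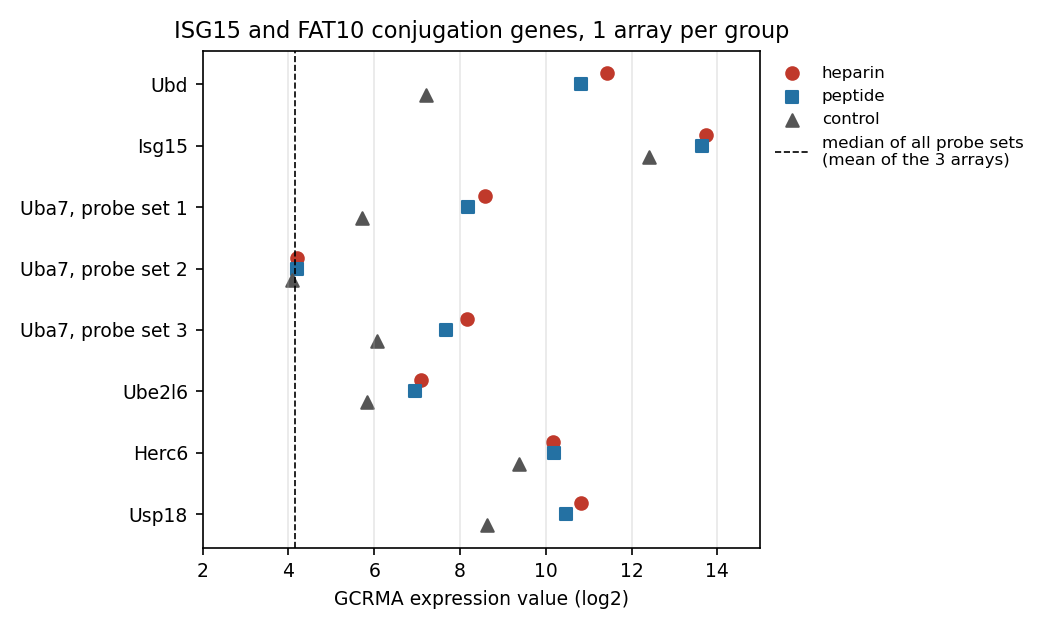
GCRMA log2 values of the 8 probe sets on the heparin (circle), peptide (square) and control (triangle) arrays, 1 array per group. The dashed line is the mean of the 3 array medians. Probe sets 1, 2 and 3 of Uba7 are 1379633_a_at, 1379634_at and 1386277_at. Heparin and peptide lie to the right of control in each row, by only 0.11 for set 2 of Uba7.

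All 6 members were measured in each comparison, on the brightest probe set of each gene. With heparin 5 of 6 were at least 2-fold higher than in control, where 1.06% of all measured genes were (98 of 9236), and 0 were at least 2-fold lower, where 0.747% were. With peptide 5 of 6 were at least 2-fold higher, where 0.723% of measured genes were (67 of 9268), and 0 were at least 2-fold lower, where 0.119% were. The members were chosen by function with these contrasts already known, so nothing is read from the counts. The members' median log2 difference was 1.78 for heparin and 1.54 for peptide, and the median over all measured genes was 0.00 in both. The 2 comparisons use the same control array, so a control value that is low by chance would raise both.

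**Figure D2:**
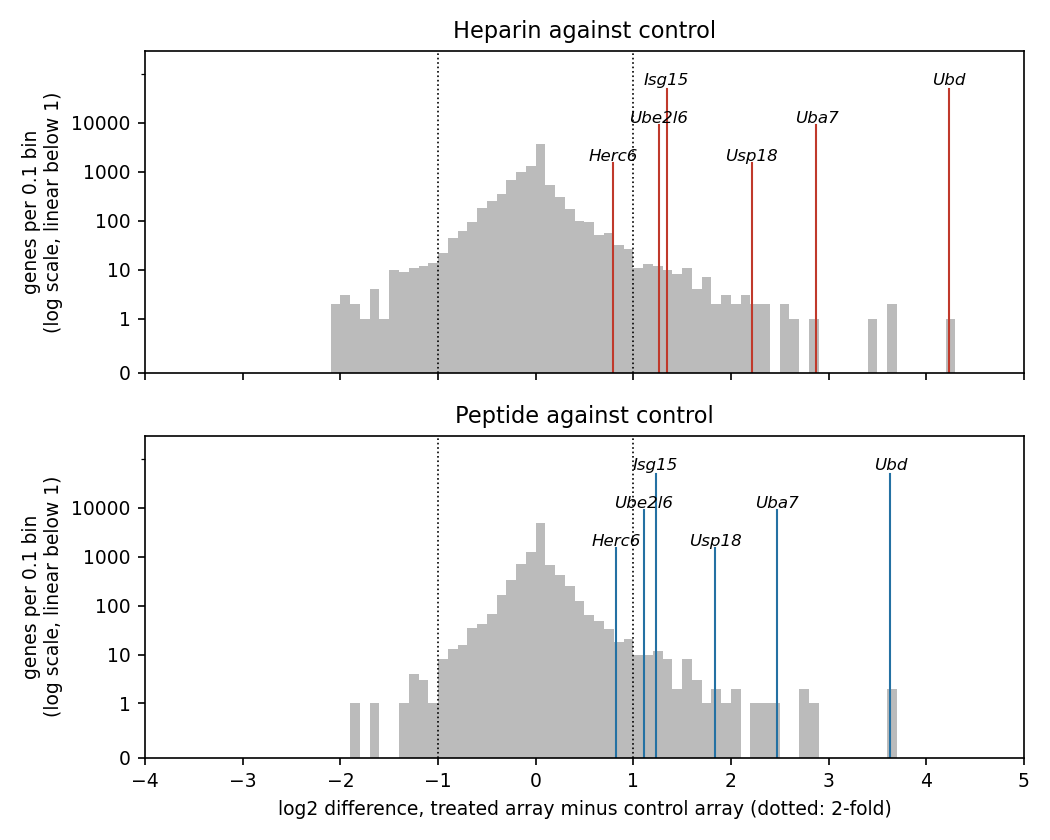
Distribution of the log2 difference from control over all measured genes (grey bars of width 0.1, log-scaled counts), for heparin above and peptide below, with the 6 members marked by coloured lines and 2-fold by dotted lines. Ubd lies at 4.24 and 3.63 and Herc6, the member nearest to 0 for both treatments, at 0.80 and 0.82.

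Heparin and peptide were compared directly on their own arrays. None of the 6 members was 2-fold apart (0 of 6, where 1.13% of 9240 measured genes were). Ubd was 1.52-fold higher in heparin than in peptide, Uba7 1.32-fold and Usp18 1.29-fold. Isg15 and Ube2l6 were 1.08-fold and 1.11-fold higher. Herc6 differed by -0.03 on the log2 scale, a sign that turned when arrays were centred on the 75th percentile or quantile-normalized. The members' median log2 difference between heparin and peptide was 0.26, and over all measured genes it was 0.00, with the central 95% of genes between -0.72 and 0.49. Among the members, the Ubd difference of 0.60 was the one outside that interval. With 1 array each, these differences cannot be set against a spread between kidneys.

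Other genes whose products are known to handle FAT10 and ISG15 differed from control by less than 2-fold. Of 13 partner genes, listed with earlier results of these data known, 13 were measured and 0 were 2-fold higher or lower in either treated pool than in control, with a median log2 difference of 0.00 for both. Over all measured genes 1.81% were 2-fold apart from control with heparin and 0.842% with peptide, so a count of 0 among 13 is near the general share. The log2 differences of these 13 genes ran from -0.67 to 0.54 with heparin and from -0.16 to 0.76 with peptide. Uba6, the E1 for FAT10, read 7.78 in heparin and 7.54 in peptide, against 7.54 in control. It has other probe sets, and 1 of them read 6.59 in heparin and 5.93 in peptide, against 6.73 in control. Ube2z, the E2 that receives FAT10 from Uba6, read 9.61 in heparin and 9.48 in peptide, against 9.61 in control. The Ubd difference was therefore not matched by one of similar size in its own E1 and E2. Nub1, which binds FAT10 and speeds its breakdown, was at 9.32 in heparin and 9.07 in peptide, against 8.78 in control, a log2 difference of 0.54 with heparin. Hdac6, a deacetylase that binds FAT10, differed by 0.10 with heparin and 0.47 with peptide.

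On the ISG15 side, Trim25, a ligase that also acts as an ISG15 E3 in human cells, read 8.84 in heparin and 9.20 in peptide, against 8.53 in control. Its log2 difference with peptide, 0.67, and that of Usp2, 0.76, lay above the central 95% of measured genes, which ended at 0.53. The other probe set of Usp2 read 7.24 in both peptide and control. With heparin the Usp2 difference was -0.67, just under the lower end of the central 95% there, -0.66. Arih1, another ligase reported to pair with Ube2l6, read 8.63 in both treated pools and 8.74 in control. Usp2, one of several ubiquitin proteases reported to react with ISG15 as well, was the partner that set heparin and peptide furthest apart. It read 8.21 in heparin and 9.63 in peptide (8.87 in control), a log2 difference of -1.42 for heparin minus peptide, while its other probe set differed by only -0.22. Usp21 differed by -0.67 between the same pools.

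Relatives of each member within the ubiquitin system are given by their ranges. Their counts of 0 below are near the 1.81% (heparin) and 0.842% (peptide) of all measured genes that were 2-fold apart from control, and nothing is read from them. Of 10 measured ubiquitin-like modifiers other than FAT10 and ISG15, 0 were 2-fold higher or lower than control, and their log2 differences ran from -0.23 (Ufm1) to 0.09 with heparin and from -0.15 (Ubl5) to 0.17 (Sumo3) with peptide. Of 7 measured E1 genes other than Uba7, 0 were 2-fold apart from control, with a range of -0.06 to 0.24 with heparin and -0.23 to 0.07 with peptide. Of 26 measured E2 genes other than Ube2l6, 0 were 2-fold apart from control and the range was -0.35 (Ube2d2) to 0.15 with heparin and -0.15 (Ube2k) to 0.21 (Ube2g2) with peptide. Ube2l3, the closest-named relative of Ube2l6 and a ubiquitin E2, read 10.03 in heparin and 10.04 in peptide, against 10.12 in control. Of 18 measured HECT ligases other than Herc6, 0 were 2-fold apart from control, with Wwp1 lowest at -0.75 with heparin and Nedd4 lowest at -0.52 with peptide. Of 34 measured ubiquitin-specific proteases other than Usp18, 0 were 2-fold apart from control. The highest of these was Usp25 with heparin (0.61) and Usp2 with peptide (0.76), followed there by Usp25 (0.56). Between heparin and peptide, Usp2 was the one gene of these 5 families at least 2-fold apart, where 1.13% of all measured genes were, and the next were Usp21 (-0.67), Wwp1 (-0.53), Usp20 (-0.49), Smurf1 and Ube2g2 (both -0.43). Each of the 5 families had a median between -0.03 and 0.00 for both treatments.

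**Figure D3:**
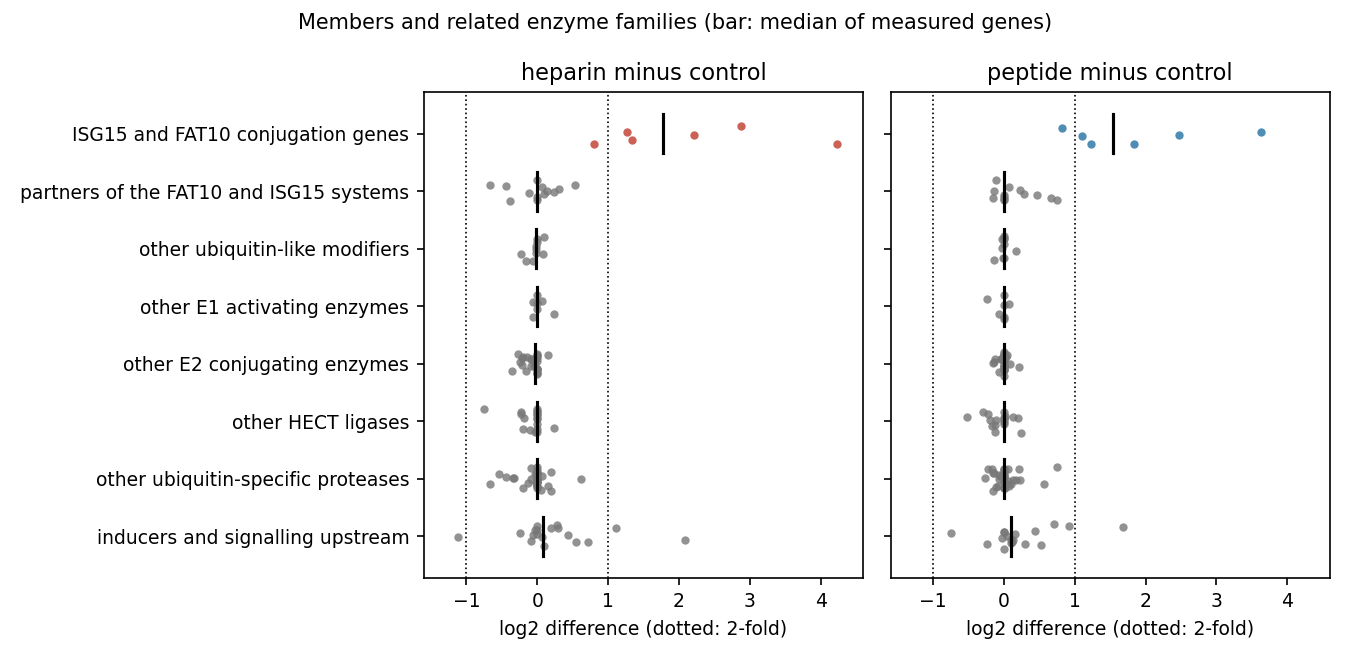
Log2 differences from control of the 6 members (coloured) and of the measured genes of 7 related lists (grey points, 1 per gene), with heparin on the left and peptide on the right. Black bars are medians and dotted lines mark 2-fold. The members' medians are 1.78 and 1.54, and the medians of the enzyme families lie between -0.03 and 0.00. Those of the upstream list are 0.08 and 0.10. The members were chosen with these differences known, so their distance from the other lists is not a test. Some partner genes are plotted again within the enzyme families.

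The inducers and the signalling chain upstream of these genes were mixed. Ifnb1, the gene of interferon beta, read 5.16 in heparin and 6.38 in peptide, against 3.31 in control, where it was under the array median. For heparin minus peptide Ifnb1 differed by -1.22 on the log2 scale. It was the 1 of 19 upstream genes measured there that was at least 2-fold apart, where 1.13% of all measured genes were. Its order, peptide above heparin, is the reverse of that of Ubd, Uba7 and Usp18, and a link between them was not tested. Ifng was at the lowest array value of 2.18 in every pool, and Tnf read 3.64, 3.66 and 3.76 in heparin, peptide and control on its brighter probe set, under the median throughout. Of 18 upstream genes measured against control, 2 were at least 2-fold higher with heparin (Irf7 and Stat2) and 1 with peptide (Irf7), while Ifnar1 was at least 2-fold lower with heparin. Over all measured genes 1.06% were 2-fold higher and 0.747% lower with heparin, and 0.723% were 2-fold higher with peptide. Irf7, a transcription factor that amplifies the interferon response, read 12.31 in heparin and 11.90 in peptide, against 10.22 in control. Stat2, a subunit of the transcription factor ISGF3, read 10.02 in heparin and 9.83 in peptide, against 8.92 in control. Irf9, which binds DNA within ISGF3, differed by 0.30 in both treated pools, and its other probe set by 0.90 with heparin and 0.58 with peptide. Irf8 differed by 0.71 with heparin and 0.70 with peptide, and Irf1 by 0.55 and 0.53. Socs3 went the other way, by -0.25 and -0.24. Ifnar1, a chain of the type I interferon receptor, differed by -1.12 with heparin and -0.75 with peptide on 1 probe set, while its 5 other sets differed by at most 0.04 either way. The list's median was 0.08 with heparin and 0.10 with peptide.

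The genes whose pattern over the 3 arrays was nearest to each member were found among 9231 genes measured on every array, as the Euclidean distance between log2 values centred on each gene's mean. Isg15 lay nearest to Oas1a, a sensor of double-stranded RNA (distance 0.01), and to the chemokine gene Ccl7 (0.04). Ube2l6 lay nearest to Slfn5 (0.01) and Oas1a (0.08). Herc6 lay nearest to Il10ra, a chain of the interleukin 10 receptor (0.02), and RT1-S3, a class I histocompatibility gene (0.03). Usp18 lay nearest to Irf7 (0.12) and the death ligand gene Tnfsf10 (0.19). Uba7 lay nearest to the nucleic acid sensor Zbp1 (0.25) and the guanylate-binding protein Gbp4 (0.40). Ubd had no gene so close, with Poteml2 at 0.66 and Uba7 at 1.04. The values were not scaled, and few genes differed as much as Ubd, so few could lie near it whatever their pattern. With only 3 arrays a short distance is easily reached, and it describes these arrays only.

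Promoter windows from RefSeq (build GRCr8, 250 bases before the annotated start to 50 after) were found for Ubd, Uba7, Ube2l6 and Herc6. The windows of Ubd, at chr20:1392636-1392935 on the minus strand, and of Uba7, at chr8:117543652-117543951 on the plus strand, are shown. Of the 4 genes with a window, these had the largest differences from control on the brightest probe set. Their windows also share the longest run of bases, 11. Every pair of the 4 windows shares a run of at least 8 bases, and Ube2l6 and Herc6 share 10. Capitals mark matches to the interferon regulatory factor (IRF) element AANNGAAA in both windows and, in Ubd, also to the kappa B consensus of NF-kB.
Ubd: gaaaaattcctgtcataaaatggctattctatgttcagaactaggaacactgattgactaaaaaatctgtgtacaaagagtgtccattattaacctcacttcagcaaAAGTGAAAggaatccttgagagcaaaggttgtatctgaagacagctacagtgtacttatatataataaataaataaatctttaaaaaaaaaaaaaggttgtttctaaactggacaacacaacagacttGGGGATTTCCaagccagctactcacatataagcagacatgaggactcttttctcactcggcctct
Uba7: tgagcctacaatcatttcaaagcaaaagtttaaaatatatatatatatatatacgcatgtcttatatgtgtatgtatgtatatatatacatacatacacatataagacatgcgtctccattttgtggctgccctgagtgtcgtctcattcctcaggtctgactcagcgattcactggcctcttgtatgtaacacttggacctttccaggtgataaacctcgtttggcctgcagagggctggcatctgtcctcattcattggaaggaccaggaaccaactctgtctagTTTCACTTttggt

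The IRF element, on either strand, begins 143 bases before the annotated start of Ubd and, on the opposite strand, 38 bases into the annotated transcript of Uba7. It was found in 2 of the 4 members' windows, and 26.4% of all 33469 windows of this length hold it. Around it the 2 windows have the same 11 bases, CAAAAGTGAAA on the Ubd strand, which 14 of the 33469 windows hold on either strand. The windows also share a run of 10 bases with no IRF element, CACATATAAG on the same strand of both, and 14 windows hold that run as well. The kappa B consensus match of Ubd, GGGGATTTCC, ends 6 bases before the start, and 7.51% of windows hold that consensus. These motifs, and the shared run, were picked after the sequences had been seen. For 3 further motifs not picked in this way, 0 of the 4 windows had a match on either strand: the core of the interferon-stimulated response element (a pair of GAAA with any 2 bases between, in 3.92% of windows and containing the IRF element), the core of the gamma-activated site (TTCNNNGAA, in 8.87%), and a kappa B core (GGGA and TTCC with any 2 bases between, in 1.30%, a subset of the consensus). No overlap occurred between the matches marked. A match is a description of letters and the absence of one concerns only this window.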

How the data were processed

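The authors deposited 1 log2 value per probe set and array, from an Affymetrix rat expression array. The submitters' processing notes name GCRMA, which corrects background by probe sequence and combines the probes of a set. Its version, its settings and the scaling between arrays are not stated there. Values were used as deposited. They were subtracted between arrays and counted at 2-fold (a difference of 1). With 1 array per group no test was made, and the number of arrays limits the precision. In 54.3% of genes measured on all arrays at least 2 arrays have identical values, so a difference of 0 can come from the summarisation.

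Probe sets were named from the platform annotation where it gives 1 symbol (20832 of 31099; 436 have several and 9831 none). All 8 probe sets of the members carry the same symbol in the RefSeq gene table of GRCr8. A gene was represented by its probe set with the highest mean. The members and lists were chosen with earlier results of these data known. The rule for named genes took every member, the 3 measured genes per list that differed most in each comparison, and the 2 genes nearest in pattern to each member. Other genes named (partners, inducers, cell markers, relatives and neighbours) were picked after their values were seen. For the longer lists, genes taken by the rule with small differences are given only within their ranges. A planned comparison of protein sequences was not run. The counting was tested on simulated data. Python 3.11.15, pandas 2.3.3 and NumPy 2.4.6 were used. The alternatives tried were other scalings, an offset, filters, choices of probe set and a 1.5-fold limit.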

Additional observations from a re-analysis of the deposited data

How the results depend on the processing

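Of 156 recomputed log2 differences of members, 154 stayed on the same side of 2-fold, and the other 2 were those of Ube2l6 against control with 32 added to the unlogged values (0.92 for heparin, 0.80 for peptide). Many of the 156 could not change. The filters only select genes and leave each difference as it was, and the choice of probe set can alter only Uba7. The count of 154 is therefore no measure of stability. Ubd ranged from 3.97 to 4.29 for heparin minus control and from 3.37 to 3.64 for peptide minus control, and Isg15 from 1.32 to 1.40 and from 1.21 to 1.23. Uba7 ranged from 1.70 to 2.93 and from 1.40 to 2.48, with the low ends from the mean of its probe sets, and had no value against control from its dimmest set, which is below the median in control. Genes were also required to reach the 60th percentile on both arrays. The members at least 2-fold higher were then 3 of 4 measured for heparin and 3 of 4 for peptide. Over all genes measured in this way, 77 of 7875 were 2-fold higher with heparin and 55 of 7901 with peptide. Uba7, on the set with its highest mean, and Ube2l6 were left out here because they read under that percentile (5.90) in control. Uba7 set 1386277_at read 6.06 in control, above it, so leaving out Uba7 depends on the probe set chosen. At 1.5-fold, 1 of 6 members (Ubd) was apart between heparin and peptide, and so were 572 of 9240 measured genes. Nothing is read from that count. The sign of Herc6 between heparin and peptide, -0.03 as deposited, ranged from -0.05 to 0.05. Pooled RNA on 1 array per group leaves the spread between kidneys unmeasured. No paired analysis was possible because each group has 1 array.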

Other observations

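The members do not neighbour each other in the RefSeq annotation of GRCr8. The nearest protein-coding gene measured on all arrays was taken on each side of each member, which gave 12 genes. They lay from 1 (such as Agrn) to 7 (Zfp57) coding genes away from the member. Of the 12, 0 were 2-fold apart from control in either treated pool, which is near the share of all measured genes (1.81% with heparin and 0.842% with peptide). Their log2 differences from control had a median of 0.04 with heparin (from -0.45 to 0.76) and 0.00 with peptide (from -0.12 to 0.37). The highest was Serping1, the C1 inhibitor gene beside Ube2l6, which read 10.75 in heparin and 10.36 in peptide, against 9.99 in control. Agrn, beside Isg15, read 8.70 in heparin and 8.45 in both peptide and control. On the sides of Ubd, the class I gene RT1-M3-1, 5 coding genes away, read 5.57 in heparin and 5.32 in peptide, against 5.05 in control. Zfp57, 7 coding genes away, read 6.46 on every array.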
